A study of Mus musculus with 10 samples.

Results

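The sites described here are the accessible sites of mouse chromosome 10 whose middle lies at or beyond 75 Mb, 6230 of the 153924 sites in the deposited list, or 4.05%. They were chosen by position alone, and the division at 75 Mb was set because earlier results of these data had shown more sites per Mb on its far side. The number of sites on either side of the division is therefore a description and not a finding. The other 4485 sites of chromosome 10 lie before 75 Mb and served as the nearest comparison, beside the 129335 sites of the 17 autosomes other than 10 and 15.

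The sites were measured by ATAC-seq, in which the transposase Tn5 cuts open chromatin and the sequenced fragments mark accessible regions. The cells were iMEF, immortalized mouse embryo fibroblasts, of the clone NG3. All groups share the same genotype. Exon 4 of the endogenous Ash2l gene had been removed by an inducible Cre-ER recombinase, and in its place the cells used the lentiviral construct FKBP-HA2-ASH2L, human ASH2L with an HA-marked tag from FKBP12 that carries the substitution F36V. The 10 libraries formed 5 groups of 2 replicates, namely untreated cells, labelled WT and given ethanol according to the methods, and cells exposed to dTAG-13, a PROTAC that degrades the fusion, for 30 min, 4 h, 8 h or 24 h. ASH2L belongs to the KMT2 complexes, which place methyl groups on lysine 4 of histone H3, and the study asked how its loss affects accessibility.

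The list pools all 10 libraries and gives a chromosome, a start and an end for each site. It holds no reads, no signal and no value per library, so that the depth is unknown and neither treatment nor replicates could be compared. All libraries also come from a single clone. No test was run, and every interval below covers the sampling of sites only.

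Accessible sites mark promoters, where transcription starts, and distal elements such as enhancers, where factors like AP-1 bind in fibroblasts. Promoters on CpG islands, stretches rich in the dinucleotide CpG, are open in most cell types. Long gene-poor stretches usually carry few sites. Chromosome 10 beyond 75 Mb contains both kinds of landscape, from the collagen VI genes and Tcf3 in a gene-rich part to the p53 antagonist Mdm2 and the architectural factor Hmga2 farther along.

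The following sequences show what the sites on both sides of the edges, at 2 promoters and at distal elements look like. Each is the 200 bases centred on a site, or the whole of a narrower site, and those at promoters were cut back to its longest run outside annotated exons. All are the plus strand of mm10. The last site before and the first site beyond the division both lie in introns of Gnaz, a G protein alpha subunit gene, and of Rsph14, which overlaps it on the other strand. Capitals mark matches to AP-1 (TGANTCA), TEAD (GGAATG) and RUNX (TGNGGT) on either strand. The first of them has 1 RUNX match and a GC content of 69.5%, and the second has none of the 3 motifs.
last site before the division, chr10:74995533-74995732: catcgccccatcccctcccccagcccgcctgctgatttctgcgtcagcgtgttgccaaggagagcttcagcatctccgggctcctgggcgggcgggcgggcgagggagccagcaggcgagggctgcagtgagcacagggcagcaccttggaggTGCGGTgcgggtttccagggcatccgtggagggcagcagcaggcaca
first site beyond the division, chr10:75002162-75002348: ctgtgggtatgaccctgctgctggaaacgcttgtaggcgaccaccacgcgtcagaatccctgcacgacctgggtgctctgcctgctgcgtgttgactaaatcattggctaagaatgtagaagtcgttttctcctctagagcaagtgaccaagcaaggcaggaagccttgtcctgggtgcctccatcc

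The promoter sites of Mdm2, whose product degrades p53, and of Dcn, which encodes the matrix proteoglycan decorin, stand for the 2 kinds of promoter found here. Capitals mark CpG dinucleotides, of which the Mdm2 stretch holds 22 in 189 bases and the Dcn stretch 0 in 43 bases.
Mdm2, chr10:117710363-117710551: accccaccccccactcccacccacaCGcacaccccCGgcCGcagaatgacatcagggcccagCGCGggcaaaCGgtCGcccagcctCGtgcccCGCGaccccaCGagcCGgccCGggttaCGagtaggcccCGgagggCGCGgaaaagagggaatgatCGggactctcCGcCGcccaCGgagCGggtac
Dcn, chr10:97479790-97479832: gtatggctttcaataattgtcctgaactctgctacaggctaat

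Of the distal sites beyond 75 Mb, 956 had an AP-1 match in the 200 bases around their middle, 74 had at least 2 and 9 had 3, and the first 2 of these by position are shown. One lies in an intron of Anks1b, 194791 bp from the nearest start site of a coding gene, and the other is intergenic, 22022 bp from Cdk17.
AP-1 rich site in Anks1b, chr10:90380837-90381036: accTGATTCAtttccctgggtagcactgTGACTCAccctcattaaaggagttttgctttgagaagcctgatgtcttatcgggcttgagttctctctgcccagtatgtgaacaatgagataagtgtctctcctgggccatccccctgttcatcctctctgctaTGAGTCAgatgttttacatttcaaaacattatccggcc
AP-1 rich site near Cdk17, chr10:93138753-93138952: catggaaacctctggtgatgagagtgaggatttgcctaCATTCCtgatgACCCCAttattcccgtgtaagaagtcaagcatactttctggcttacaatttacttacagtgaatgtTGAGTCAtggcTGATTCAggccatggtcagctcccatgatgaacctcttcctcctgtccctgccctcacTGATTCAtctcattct

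The bin from 113 to 114 Mb had the highest number of sites relative to its content on any autosome, as described below, and contains no coding gene. Its widest site (1773 bp) and its narrowest site (176 bp) are intergenic, the nearest coding gene being Atxn7l3b. Neither stretch holds a match to the 3 motifs, and their GC contents were 44.5% and 41.5%.
widest site of the bin, chr10:113240559-113240758: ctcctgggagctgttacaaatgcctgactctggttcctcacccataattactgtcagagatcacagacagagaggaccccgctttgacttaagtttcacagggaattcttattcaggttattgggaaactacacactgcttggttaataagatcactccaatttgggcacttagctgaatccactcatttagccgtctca
narrowest site of the bin, chr10:113189504-113189679: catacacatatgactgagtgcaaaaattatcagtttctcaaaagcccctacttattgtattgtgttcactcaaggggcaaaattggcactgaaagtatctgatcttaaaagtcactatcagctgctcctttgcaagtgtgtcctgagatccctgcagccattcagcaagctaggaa

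The last site before 124 Mb and the first site beyond it flank the place where the density had fallen to that of the following Mb. The site before the edge was 368 bp wide and the site after it 207 bp, and neither stretch holds a match to the 3 motifs.
last site before 124 Mb, chr10:123998917-123999116: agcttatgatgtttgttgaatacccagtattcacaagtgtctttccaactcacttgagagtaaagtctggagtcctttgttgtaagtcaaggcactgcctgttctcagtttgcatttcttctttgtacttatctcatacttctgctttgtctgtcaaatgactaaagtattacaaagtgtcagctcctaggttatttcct
first site beyond 124 Mb, chr10:124122319-124122518: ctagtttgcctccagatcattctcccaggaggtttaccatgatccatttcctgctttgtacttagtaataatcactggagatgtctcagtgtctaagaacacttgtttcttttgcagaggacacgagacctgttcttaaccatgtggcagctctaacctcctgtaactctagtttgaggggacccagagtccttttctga

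Beyond 75 Mb, chromosome 10 carried 112.1 sites per Mb of sequenced bases, against 62.8 before it, a ratio of 1.79 (95% Poisson interval 1.72 to 1.86). The other 17 autosomes had 59.7 sites per Mb together and lay between 49.2 sites per Mb (chromosome 14) and 76.1 (chromosome 11). The part before 75 Mb was within that range. Chromosome 15 had 99.7 sites per Mb over its whole length. The 55.6 Mb beyond the division make up 43.8% of sequenced chromosome 10 and hold 58.1% of its sites. Sites covered 7.39% of the bases there, 4.42% before 75 Mb and 4.34% on the other 17 autosomes.

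The sites just inside and just outside the division did not stand apart. The 3 sites before it were 191, 1475 and 387 bp wide, and their middles lay 45782, 32674 and 4367 bp from it. The 3 sites beyond it were 187, 1022 and 196 bp wide, at 2254, 21224 and 32016 bp. The 0.5 Mb before the division held 24 sites and the 0.5 Mb after it 56.

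A fit of 1 step in sites per Mb over 1 Mb bins placed the step at 75 Mb, at the start of the bins beyond the division. The gain in log-likelihood was 446.2, and the largest on another autosome was 286.4 (chromosome 7). The division had been set from the same counts, so the fitted position and its gain are descriptions and not support. The ratio itself was not the largest, since chromosomes 1 and 8 had upward steps of 2.1 and 2.01, and chromosomes 2, 14, 17 and 18 had downward steps to between 0.0966 and 0.52 times the density before them. With 5 levels the fit returned 75, 82, 105 and 123 Mb. These bounds were read from the data after it was seen, and they are used below as a description. They divide the sites into a gene-rich stretch from 75 to 82 Mb (1056 sites), an intermediate stretch from 82 to 105 Mb (1732 sites), a dense stretch from 105 to 123 Mb (2862 sites) and the end of the chromosome (580 sites).

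**Figure D1:**
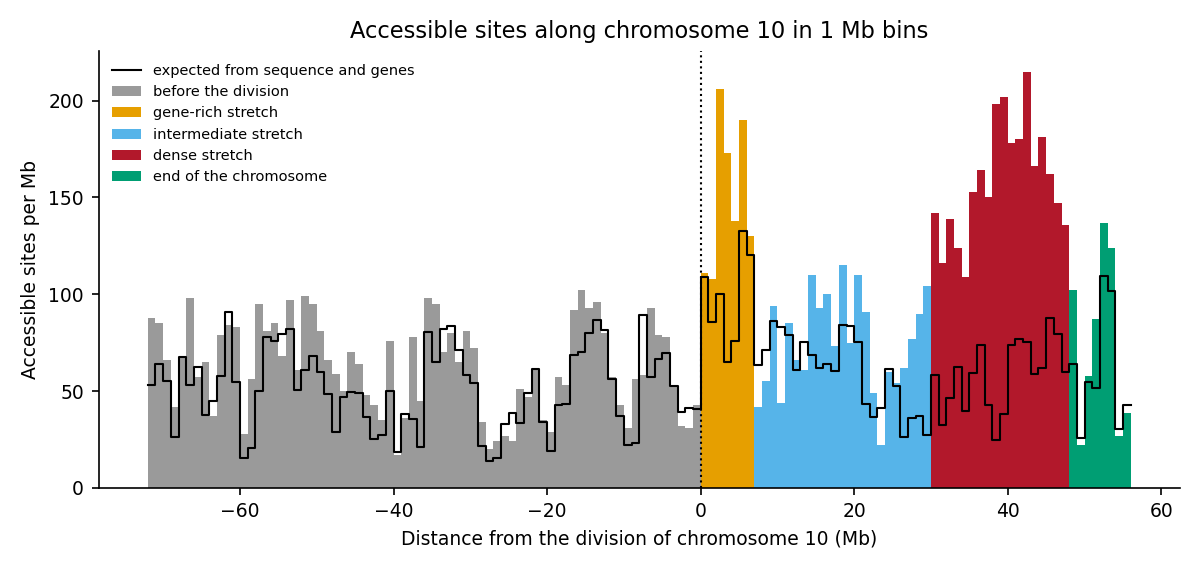
Accessible sites per Mb of sequenced bases (vertical axis) in 1 Mb bins of chromosome 10, by distance from the division at 75 Mb (horizontal axis, Mb), with bars coloured by stretch and a black line for the number expected from genes, GC content, CpG islands and masked repeats. The 7 gene-rich bins stand at 108 to 206 sites per Mb, with expected numbers of 64.9 to 132.9 and ratios to them of 1.02 to 2.67. The 18 bins of the dense stretch stand at 109 to 215 sites per Mb above expected numbers of 24.8 to 87.6.

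The 4 stretches differed in density and gene content, a gene being counted where its middle lies. The gene-rich stretch had 150.9 sites and 35.3 coding genes per Mb, the intermediate stretch 75.3 sites and 6.09 genes, the dense stretch 159 sites and 5.33 genes, and the end of the chromosome 76.4 sites and 22.4 genes. The other 17 autosomes had 8.76 coding genes per Mb. The dense stretch was thus nearly as poor in genes as the part before 75 Mb (5.15 per Mb), with 2.53 times its sites per Mb. It holds 45.9% of the sites beyond 75 Mb on 32.4% of the bases, and 14.7% of the coding genes.

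The number of sites was also compared with that predicted from the sequence. The expected number of sites was taken from a Poisson regression on coding start sites, GC content, CpG islands and soft-masked repeats, fitted on 1 Mb bins of the other 17 autosomes. Beyond 75 Mb 3579 sites were expected, and the ratio of observed to expected was 1.74 (95% Poisson interval 1.7 to 1.78). Each of the 17 autosomes, predicted without itself, lay between 0.88 and 1.17 (mean 1 ± 0.0768, SD over 17 chromosomes). The ratio was 1.23 before 75 Mb, above that range as well, 1.53 in the gene-rich stretch, 1.26 in the intermediate stretch, 2.72 in the dense stretch (2.63 to 2.83) and 1.25 at the end. The division and the bounds had been set on sites per Mb, so these ratios are descriptions. The range is also one of whole chromosomes, and windows of 18 Mb on the other 17 autosomes reached up to 1.41. Chromosome 15 stood at 1.69 in all.

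The excess was uneven along the region. Of the 56 bins beyond 75 Mb, 22 had at least 2 times the expected sites, and 15 of these were among the 18 bins of the dense stretch. Before 75 Mb it was 5 of 72 bins, on the other 17 autosomes 46 of 2174 (2.12%) and on chromosome 15 39 of 101. The bins from 113 to 114 Mb and from 114 to 115 Mb ranked first and second of all autosomal bins, with 198 sites (7.98 times the expected number) and 202 sites (5.28 times). The first contains 0 coding genes and the second contains Trhde, which encodes a peptidase that inactivates thyrotropin-releasing hormone. The next bin in rank was on chromosome 16, at 4.19.

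Bins were also set beside bins of their class of gene number on the other 17 autosomes. The bounds of the dense stretch had been fitted to the same sites per Mb, so its high rank is a description. Each of the 18 bins of the dense stretch lay above the 95th percentile of bins of its gene class on the other 17 autosomes, and 13 lay above the highest of them. For bins with 0 or 1 coding gene, the median was 157 sites per Mb in the dense stretch (4 bins, 109 to 202) and 29 on the other autosomes (524 bins, highest 130). In the intermediate stretch 4 of 23 bins exceeded the 95th percentile, before 75 Mb 1 of 72 did, and on chromosome 15 46 of 101 did. A window of 18 Mb, the fitted length of the dense stretch, was moved along each autosome. It reached at most 1.41 times the expected sites on the other 17 autosomes (chromosome 4) and 2.43 on chromosome 15. On chromosome 10 it reached 2.91, where it began at 102 Mb. Its length was taken from chromosome 10, so the comparison between chromosomes is not neutral.

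**Figure D2:**
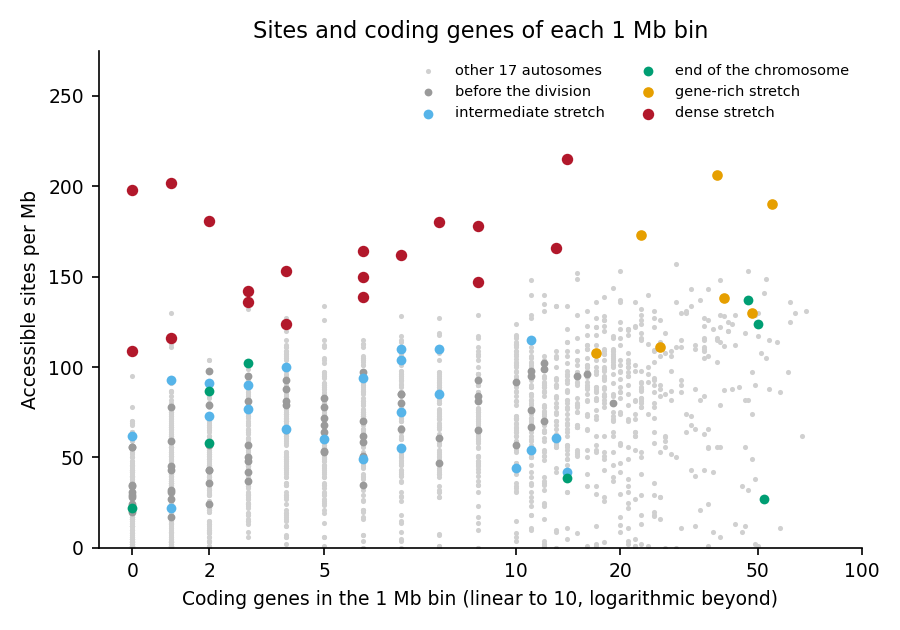
Accessible sites per Mb (vertical axis) against the number of coding genes (horizontal axis, linear to 10 and logarithmic beyond) for each 1 Mb bin, with bins of the other 17 autosomes in light grey and those of chromosome 10 coloured by stretch. Of the 18 bins of the dense stretch 13 lie above every grey bin of their class of gene number, as do 3 of the 7 gene-rich bins.

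On the near side of the dense stretch the density rose over several Mb. From 95 to 101 Mb there were 64.3 sites per Mb, from 101 to 105 Mb 83.2, from 105 to 112 Mb 135.3 and from 112 to 115 Mb 183.3. Relative to the expected number the rise began earlier, with ratios of 1.25, 2.64, 2.55 and 5.2 in the same order, and a single step fitted to this ratio fell at 101 Mb. The bin from 101 to 102 Mb had 62 sites, a GC content of 36.2% and 0 coding genes by their middle.

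On the far side the density fell in several steps. From 115 to 120 Mb there were 184 sites per Mb, from 120 to 123 Mb 148.3, from 123 to 124 Mb 102 and from 124 to 127 Mb 55.7. The ratios to the expected number were 2.66, 1.96, 1.6 and 1.26 in the same order. In steps of 250 kb the counts were 32, 26, 28 and 16 from 123 to 124 Mb and 7, 8, 1 and 6 from 124 to 125 Mb. The last steep fall lies just beyond the body of Fam19a2 (chr10:123263996-123741204), which encodes a secreted chemokine-like protein. The other coding genes within 500 kb of the step at 123 Mb were the phosphatase gene Ppm1h, the trafficking gene Mon2 and the deubiquitinase gene Usp15. At the step of 105 Mb the only coding gene in that distance was Tmtc2 (chr10:105187663-105574451).

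At the division, the coding genes within 500 kb of 75 Mb are Pcdh15, Rsph14, Gnaz, Rab36, Bcr, Specc1l, Adora2a, Gucd1 and Upb1. Pcdh15 (chr10:73099342-74649737), a cadherin gene of sensory hair cells, lies before the division. The kinase regulator gene Bcr (chr10:75060592-75184921) carries 20 sites. The step at 82 Mb lies in a cluster of zinc finger genes. From 80 to 81.5 Mb there were 191.3 sites per Mb and from 81.75 to 82.75 Mb 21.

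Sites beyond 75 Mb were narrow. Their median width was 532 bp (95% interval 518 to 549, quartiles 301 and 882), against 602 bp before 75 Mb (588 to 621). The 17 other autosomes had medians of 610.5 to 648 bp. In the dense stretch the median was 470 bp (450 to 492), in the intermediate stretch 572 bp, at the end 582 bp and in the gene-rich stretch 630.5 bp. The share of sites under 250 bp was 20.1% in the dense stretch (18.7 to 21.6%) and 10.5 to 11.9% on the other autosomes. Chromosome 15 had 16.3% such sites and a median of 561 bp.

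The number of sites per Mb in the dense stretch was raised at every width, most at the narrow end. Sites under 250 bp were 4.72 times as frequent as on the other 17 autosomes (31.9 against 6.77 per Mb). The ratio was 3.24 for sites from 250 to under 500 bp, 2.23 from 500 to under 1000 bp and 1.73 for 1000 bp or more. Even the widest class, at 24.1 per Mb, lay above the range of the other autosomes (10.6 to 19.4). On chromosome 15 the ratios were 2.41, 1.77, 1.54 and 1.42 in the same order, with 19.8 per Mb in the widest class. The pattern was thus not particular to the dense stretch, whose bounds had been fitted to sites per Mb. In the dense stretch the observed number was 2.08 times the expected one for sites of 619 bp or more, the median of the list, and 3.36 times for narrower sites. These widths come from peaks called on merged libraries, and how far they depend on local read depth was not tested, since the list holds no reads.

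**Figure D3:**
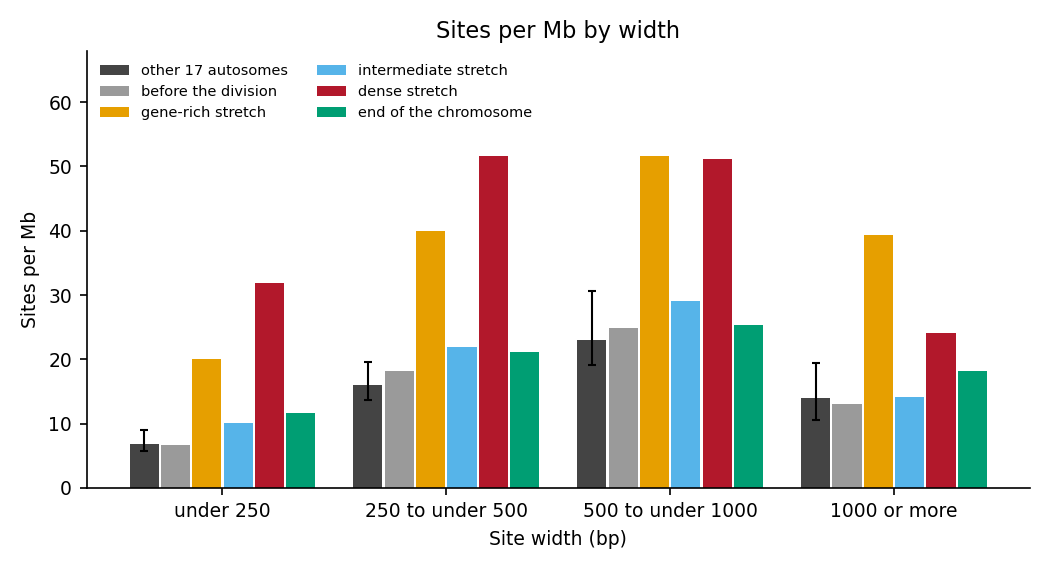
Sites per Mb of sequenced bases (vertical axis) in 4 classes of site width (horizontal axis, bp) for the other 17 autosomes, with the range over these chromosomes as error bars, and for the 5 stretches of chromosome 10. The dense stretch exceeds the range of the other autosomes in every class, by the largest ratio for sites under 250 bp (31.9 against at most 9.04 per Mb), and the gene-rich stretch has the highest density of sites of 1000 bp or more (39.3 per Mb).

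Widths in the dense stretch differed from the other autosomes in opposite directions at distal sites and at CpG island promoters. Intergenic sites of the dense stretch had a median of 459 bp (432 to 485) and intronic distal sites of 452 bp (427 to 484), where the other autosomes had 561 to 597 and 553 to 593 bp. Promoter sites off islands had 590 bp (491 to 700), an interval that includes part of the range of the others (623 to 710.5). The 62 promoter sites on islands, in contrast, had a median of 1810 bp (1576 to 2007), above the 1367 to 1490 bp of the other autosomes. Beyond 75 Mb as a whole these sites had 1484 bp (1413 to 1559). Before 75 Mb they had 1539 bp (1457 to 1599), at the end 1532 bp (1443 to 1810), in the gene-rich stretch 1394 bp and in the intermediate stretch 1389 bp. Distal sites were also narrow on chromosome 15, with 526 bp for intergenic and 524 bp for intronic sites.

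Sites were divided by their position relative to genes. A site within 1 kb of an annotated start site was called a promoter site and the others distal. Promoter sites made up 15.3% of the sites beyond 75 Mb (14.4 to 16.2%, Wilson interval), 33.3% in the gene-rich stretch, 12.7% in the intermediate stretch, 8.21% in the dense stretch and 25% at the end. The share was 12.8% before 75 Mb and 13.7 to 24.4% on the other autosomes. Intergenic sites accounted for 42.6%, intronic sites for 38.9% and exonic sites for 3.15%. In the dense stretch there were 145.9 distal sites per Mb, 2.97 times the density of the other 17 autosomes, and 13.1 promoter sites per Mb, 1.23 times.

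The share of promoters with a site was also counted over genes. Of 653 coding genes 496 had a promoter site, or 76% (72.5 to 79.1%), against 83.2% before 75 Mb and 58.5 to 83.8% on the other autosomes. Without olfactory and vomeronasal receptor genes the share was 84.2% (484 of 575), where the other autosomes had 62.3 to 83.8%. Of genes with a CpG island at a start site 375 of 380 had a promoter site, or 98.7%, including all 63 in the dense stretch, where the other autosomes had 90.7 to 97.2%. Of genes without an island 44.3% had one (121 of 273), and 17 of 33 in the dense stretch, compared with 55.3% before 75 Mb and 35.2% on the other 17 autosomes (23.6 to 56.9%). Long noncoding RNA genes had a site at the start in 49.3% of cases (136 of 276), and in 59.1% in the dense stretch (48.6 to 68.8%), 55.8% in the gene-rich stretch and 70% at the end, against 49.7% on chromosome 15, 38.7% before 75 Mb and 42.8% on the other autosomes.

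Gene bodies of the dense and the gene-rich stretch held more sites per length than those of most other parts. Coding genes of 50 kb or more had a median of 16.7 sites per 100 kb in the dense stretch (37 genes, quartiles 14 and 19), 16.1 in the gene-rich stretch (17 genes), 10.9 beyond 75 Mb as a whole, 8.02 before 75 Mb, 13.1 on chromosome 15 and 7.67 on the other 17 autosomes. The bounds of the dense and the gene-rich stretch had been fitted to sites per Mb, so their high values here are descriptions. Of the 37 genes of the dense stretch, 36 were above the median of the other 17 autosomes and 19 above their 95th percentile of 16.6. The exception was Lemd3, an inner nuclear membrane gene, with 7.15. In the intermediate stretch the median was 8.02 (51 genes), and 3 genes exceeded that percentile, as did 7 of the 17 in the gene-rich stretch.

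Most sites in a single gene were found in Nav3 (chr10:109681259-110456204), a neuron navigator gene, with 114 sites. Grip1 (chr10:119453830-120087261), a scaffold gene of glutamate receptors, had 106 sites, and Anks1b (chr10:89873509-90973300), a gene of synaptic signalling in the intermediate stretch, had 102. Per length, among coding genes of 50 kb or more, Frs2, an adaptor of fibroblast growth factor receptors, led with 27.8 sites per 100 kb. Cnot2, a subunit of the CCR4-NOT complex, followed with 25.9, and Tph2, an enzyme of neuronal serotonin synthesis, with 24.4. All 3 lie between 115 and 118 Mb, in the dense stretch. The bin from 117 to 118 Mb, which holds Frs2 and Mdm2, had the most sites of the bins beyond 75 Mb (215).

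**Figure D4:**
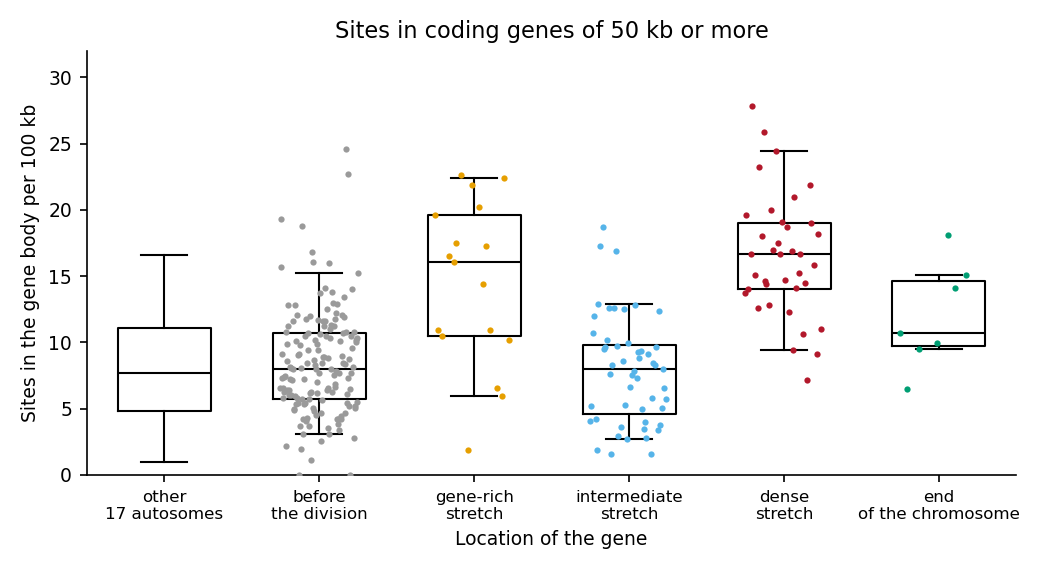
Sites in the gene body per 100 kb (vertical axis) of coding genes of 50 kb or more on the other 17 autosomes and in the stretches of chromosome 10 (horizontal axis), with boxes for quartiles and median, whiskers from the 5th to the 95th percentile and points for single genes on chromosome 10. Genes of the dense stretch, whose bounds were fitted to sites per Mb, have a median of 16.7 against 7.67 on the other autosomes. Frs2 is the highest on chromosome 10 at 27.8.

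The groups of genes below are to be read against the 84.2% of coding genes beyond 75 Mb other than receptor genes that had a promoter site, and the 98.7% of those with a CpG island. Genes listed under p53 pathway, cell cycle and cell death had a promoter site in 17 of 17 cases. Mdm2 (chr10, minus strand, body from 117688875) carried 8 sites in 21.9 kb, and its widest promoter site measured 1956 bp. Mdm1, a centriole gene, had 4 sites, Cdk4 and Cdk2, kinases that drive the cell cycle, 1 each, and Cdk17, a related kinase gene, 18, the most in the group. The list also held neighbours of Mdm2 such as Rap1b, a small GTPase gene, and Cpsf6, a gene of RNA processing, with 10 sites each. E2f7, a repressor of cell cycle genes, had 6 sites and a promoter site of 2148 bp. The kinase gene Tbk1 had 11 sites in 40.3 kb, 3 of them under 250 bp.

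Of the extracellular matrix genes 10 of 13 had a promoter site (76.9%), below the share of all coding genes other than receptor genes. Col18a1 had the most sites (25), Col6a1 and Col6a2, which encode chains of collagen VI, had 4 and 1, and Timp3, an inhibitor of matrix proteases, 7. The 4 genes of the small proteoglycan cluster near 97.5 Mb were poor in sites. Dcn had 2 sites and a promoter site of 588 bp, Lum and Epyc had 1 site each away from the start, and Kera had 0. Dcn and Lum are expressed in many fibroblasts, Kera mainly in the cornea and Epyc in cartilage.

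Genes listed under growth factors, receptors and feedback inhibitors had promoter sites in 20 of 22 cases (90.9%, against 84.2%). The exceptions were the cytokine gene Il22 and the inhibin gene Inhbc, which had 0 sites in its body. The list also held Hcfc2, the kinase gene Dyrk2 and the transcription factor gene Gli1, which do not belong to these classes and had promoter sites. Igf1, which encodes insulin-like growth factor, had 8 sites and Kitl, the ligand of the receptor Kit, 7. Ptprr, a phosphatase gene of the dense stretch, had the most (43). The phosphatase gene Ptprb (25), the stem cell receptor gene Lgr5 (24), Frs2 (22) and Wif1 (14), which encodes an inhibitor of Wnt signalling, lie in the same stretch. The receptor genes Lrp1 (15) and Erbb3 (2) lie near the end of the chromosome. The site at Socs2, an inhibitor of cytokine signalling, was the widest beyond 75 Mb (chr10:95414389-95418264, 3876 bp).

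All 20 genes listed under transcription factors and chromatin had a promoter site. The list also held Usp15, the RNA-binding protein gene Rbms2 and Uhrf1bp1l, which do not belong to these classes. Hmga2 (chr10, minus strand, body from 120361275) had the most sites in the group, 23, and with 3330 bp the third widest site beyond 75 Mb (chr10:120475073-120478402). The second widest, of 3595 bp, covered the start sites of Mbd6 and of Ddit3, a stress response factor (chr10:127288020-127291614). Elk3, an ETS factor, had 11 sites, Nfic, a nuclear factor I gene, 12, Dot1l, a histone methyltransferase, 9, Tcf3, an E protein, 4, and Smarcc2, a subunit of chromatin remodelling complexes, 3. Nfyb, a CCAAT-binding subunit, and Stat6, a cytokine-activated factor, had the fewest, 1 site each.

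Genes of other lineages had promoter sites about as often as coding genes in general. Of 18 genes chosen for their role in neurons, muscle and other differentiated cells, 15 had a promoter site (83.3%, against 84.2%), and together they held 478 sites. Nav3, Grip1, Trhde (79) and Syt1 (47), which encodes the synaptic vesicle protein synaptotagmin, contributed most. Those without included Myf5, a muscle determination factor, and Nts, which encodes neurotensin, both with 0 sites in the body. Myf6, the neighbour of Myf5, had 1 site of 929 bp at its start. The lysozyme genes Lyz1 (5.07 kb) and Lyz2 (4.99 kb), whose near-identical sequences can share reads, had 3 sites each.

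Markers over the genome were used to check the cell type. Of 16 fibroblast markers 15 had a promoter site, Lum being the exception. So had 5 of 5 neuronal, 4 of 5 epithelial, 3 of 4 endothelial, 2 of 5 blood and 1 of 5 muscle markers. A promoter site in the pooled list thus did not separate fibroblasts from neurons or epithelium, and expression was not analysed here.

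The receptor cluster at the end of the chromosome held few sites. Of 78 olfactory and vomeronasal receptor genes 12 had a promoter site and 58 had no site in the body. At the end of the chromosome 4 of 64 had a promoter site and 7 had a site in the body, whereas in the gene-rich stretch 8 of 14 had a promoter site and 13 a site in the body. The longest stretch without a site, 242765 bp (chr10:129849982-130092746), holds 10 of these receptor genes. Of 5 genes named Zfp, 3 had a promoter site, the exceptions being Zfp433 and Zfp781. The emptiest 1 Mb bins beyond 75 Mb were those from 98 to 99 Mb and from 124 to 125 Mb, with 22 sites each. In the dense stretch 16 of 96 coding genes lacked a promoter site, 8 of which carry Gm names and lie in the bin of Il22 and its near copy Iltifb, where similar sequences can share reads.

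Sites stood close together in the dense and the gene-rich stretch. The median distance between neighbours was 4653 and 4449 bp there and 5247 bp beyond 75 Mb as a whole. It was 5552 bp on chromosome 15, 8460 bp before 75 Mb and 7342 bp on the other 17 autosomes. These distances restate the density to which the bounds had been fitted. The largest gap in the dense stretch was 71308 bp, against 467575 bp before 75 Mb. The longest chain of sites at most 2 kb apart had 7 sites (chr10:77644785-77650120) in Ube2g2, a gene of protein degradation in the gene-rich stretch.

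Distal sites beyond 75 Mb had an AP-1 match in the 200 bases around their middle in 18.1% of cases (17.1 to 19.2%), against 22.8% before 75 Mb (21.5 to 24.2%), 19.4 to 23% on the other autosomes and 20.9% of all 124339 autosomal distal sites. In the dense stretch it was 16.4% (15.1 to 17.9%), in the gene-rich stretch 15.8%, in the intermediate stretch 23.1% and at the end 14.7%, and chromosome 15 had 19.1%. TEAD matches were present in 15.6% of distal sites in the dense stretch (14.3 to 17%), where the other autosomes had 16.8 to 18.2%, and RUNX matches in 34.6%, where they had 38.1 to 40.9%. RUNX matches reached 43.5% in the gene-rich stretch and 42.1% at the end. CTCF matches were found in 1.1% of distal sites in the dense stretch (0.77 to 1.58%), against 2.18 to 4.12% on the other autosomes and 2.03% on chromosome 15. The CTCF share varied with width. From 500 to under 1000 bp it was 2.57% in the dense stretch (1.71 to 3.87%) and 5.15% on the other 17 autosomes. Under 250 bp it was 0.363% (0.0996 to 1.31%) and 1.09%, within the interval. EGR matches (GCGNGGGCG) were present in 3.99% of the promoter sites beyond 75 Mb and 4.26% of those on the other 17 autosomes. Among all 150083 autosomal sites, AP-1 was matched in 18.9%, TEAD in 16.3%, RUNX in 38.8%, EGR in 0.86% and CTCF in 2.83%.

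Sites under 250 bp had the fewest AP-1 matches in the dense stretch, before 75 Mb and on the other 17 autosomes, and the dense stretch stayed below the other 17 autosomes also within classes of width. Under 250 bp, 10.7% of its distal sites had a match (8.39 to 13.6%), compared with 17.5% on the other 17 autosomes. From 250 to under 500 bp it was 15.4% (13.1 to 17.9%) against 19.6%, and from 500 to under 1000 bp 20.1% (17.6 to 22.9%) against 23.5%. At 1000 bp or more the values were 19.3% (15.5 to 23.8%) and 20.5%, within the interval. The gene-rich stretch was as low, with 9.91%, 11.9% and 19.2% in the 3 classes under 1000 bp, and chromosome 15 had 14.3%, 15.8% and 23.7%, so that this was not particular to the dense stretch. A match is a description of the letters and not a bound site.

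**Figure D5:**
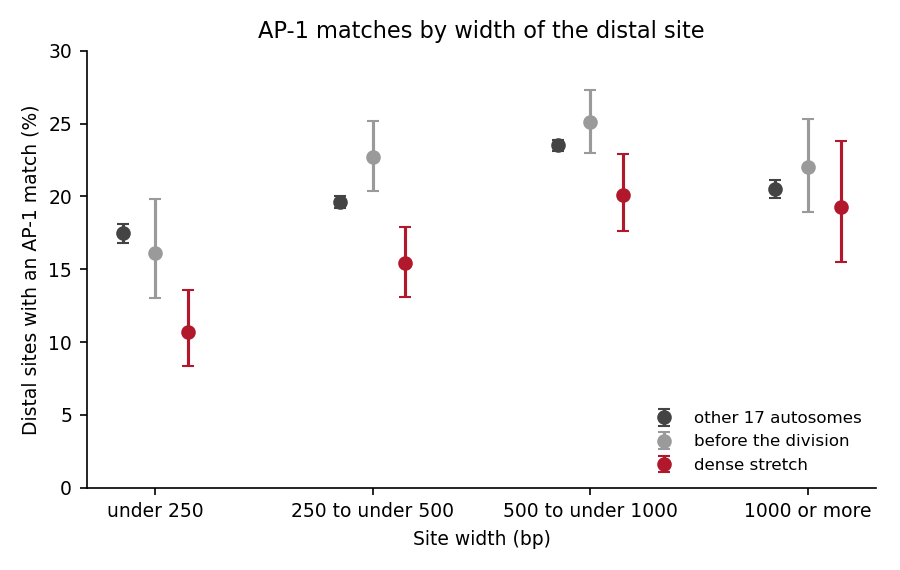
Share of distal sites with an AP-1 match in the 200 bases around the middle (vertical axis, %) by site width (horizontal axis, bp) for the other 17 autosomes, chromosome 10 before the division and the dense stretch, with 95% Wilson intervals. The dense stretch is lowest in every class, at 10.7% under 250 bp and 19.3% at 1000 bp or more. Its interval overlaps both others at 1000 bp or more, and that of the part before the division also under 250 bp.

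The base composition of the sites differed between the stretches. The median GC content of distal sites was 43.7% beyond 75 Mb, 50% in the gene-rich stretch and 42.6% in the dense stretch, and 42.8 to 46.7% on the other autosomes. The middle lay in a soft-masked repeat in 17.2% of sites beyond 75 Mb, 18.3% in the dense stretch and 19% at the end of the chromosome. The share was 16.5% on chromosome 15, 15.7% before 75 Mb and 13.2 to 14.9% on the other autosomes. The dense stretch itself was 41% GC and 30.9% masked, and the other 17 autosomes 42% and 33.5%.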

How the data were processed

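In the study, Trim Galore trimmed the reads, BWA placed them on mm10, SAMtools removed unusable reads as ENCODE recommends, and Picard merged the replicates. The authors called narrow peaks with MACS (MACS2 in the submitters' processing notes) and deposited 1 list over all samples. Versions, the peak threshold, the Tn5 shift and the rule for joining sites were not given in the sources used here. Both the number and the width of peaks depend on read depth and threshold. The deposited table gives positions in base pairs and no other value. Whether starts count from 0 is not stated. They were treated so and are printed counted from 1, and under the other convention each site would be 1 base wider.

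The members, the stretches and the gene lists were chosen with earlier results of these data known. Named genes were the first members of a list, those with most or fewest sites, those without a promoter site, and those singled out by width, number of sites or distance to a step. Other genes of the lists, and the sequences at 113 and 124 Mb, were chosen after their values were seen. Some genes of the lists are counted but not reported here by name. Genes and start sites of all transcripts came from GENCODE M21, and sequence from the matching GRCm38 assembly. CpG islands were 500 bp windows with at least 55% GC, an observed to expected CpG ratio of at least 0.65 and at most 50% masked bases. Steps were fitted by Poisson likelihood over bins of 1 Mb, with at least 3 bins a level. Intervals are 95% Wilson, Poisson or order-statistic intervals. Fits and overlaps were tested on simulated data, and the motif searches were not. Python 3.11.15, NumPy 2.4.6, SciPy 1.17.1 and Matplotlib 3.10.9 were used.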

Additional observations from a re-analysis of the deposited data

How the results depend on the processing

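No paired analysis was possible because no result comes from a test and the 10 libraries are pooled, so that none could be left out either. Of 35 alternative values 8 stayed within the interval of the reported value and 27 moved beyond it, and none of the ratios fell to the other side of 1. The density ratio of 1.79 became 1.67 with the division at 70 Mb, 1.59 at 80 Mb, 1.58 for wide sites (the median width of the list or more), 1.67 for covered bases and, chosen after seeing the data, 1.88 with the division at 105 Mb. The single step at 75 Mb moved to 76 Mb with 2 Mb bins, to 103 Mb for distal sites, to 101 Mb with expected sites as exposure and, chosen afterwards, to 103 Mb for sites narrower than the median. The ratio of observed to expected sites beyond 75 Mb, 1.74, became 1.86 with GC content only, 1.47 for wide sites and 1.81 for distal sites. In the dense stretch, where all alternatives were chosen after seeing the data, 2.72 became 2.94 both with coding start sites only and with GC content only, 2.08 for wide sites, 3.36 for narrow sites and 2.88 for distal sites. With bounds of 101 and 124 Mb it was 2.66, within its interval. The promoter share of 15.3% became 12.1% with a window of 500 bp, 25.4% with 3 kb, 11.7% with coding start sites and 24.1% for wide sites. The median width of 532 bp became 493 bp for distal sites. The share of coding genes with a promoter site, 76%, became 72.1% with a window of 500 bp, 68% for wide sites and 84.2% without receptor genes. The AP-1 share of 18.1% became 34.5% over whole sites and 21.3% for wide sites. The cause of these shifts was not tested. The depth is unknown and could not be varied.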
